A study of Homo sapiens with 12 samples.

Results

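Cytosolic ribosomal proteins are the protein subunits of the ribosomes that translate messenger RNA outside mitochondria. They were taken as every row of the gene count table whose symbol is RPL or RPS followed by a number (with or without a final A, X or L), RPLP0, RPLP1, RPLP2 or RPSA, which gave 83 of 56638 gene symbols. A filter on low counts kept 80 of the 83, among 16080 genes tested in all. The 3 that did not pass were paralogs of other members: RPL10L had 0 counts in every library, RPL3L had 0 or 1, and RPS10L had between 1 and 5. This rule by symbol used no measured value, though it was set with earlier results of these data known.

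The libraries were polyadenylated RNA from 501Mel, an established human melanoma cell line with mutant BRAF, treated for 48 hours in 6 groups of 2. Cells received vehicle (DMSO), the BRAF inhibitor vemurafenib at 1 µM (Vem), resveratrol at 5 µM (RSV), both of these (RSV+Vem), the aryl hydrocarbon receptor ligand TCDD at 10 nM, or resveratrol with TCDD (RSV+TCDD). For RSV+TCDD the sample label gives TCDD as 1 nM, while the treatment protocol gives 10 nM. All groups came from this single line, and nothing in the labels says whether the 2 libraries of a group came from separate cultures, so the p-values measure the spread between these libraries, which may be technical.

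Library totals ranged from 8378655 counts (RSV+Vem replicate 2) to 25076925, and RNA integrity numbers from 8.6 to 9.7, the lowest being 8.7 and 8.6 in RSV+Vem. All 7 melanocytic markers passed the filter (summed counts of 184251 to 693179 per library), whereas the 3 keratinocyte markers summed to at most 1 count. The endothelial list summed to 3 to 36 counts and the leukocyte list to 1 to 28. The 3 fibroblast markers summed to 311 and 313 counts in vehicle, 99 and 81 in Vem, 209 and 299 in RSV, 154 and 79 in RSV+Vem, 869 and 430 in TCDD, and 266 and 331 in RSV+TCDD, most of them on LUM, while DCN had 0 to 14.

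The ribosome has a small (40S) subunit, which reads the messenger RNA, and a large (60S) subunit, which joins amino acids and releases the chain through an exit tunnel. Ribosomal protein messengers are among the most abundant in a growing cell, and most start at a C followed by a run of pyrimidines, the 5′ terminal oligopyrimidine (TOP) motif, through which mTOR signalling and LARP1 govern their translation. MYC is known to raise transcription of ribosomal protein genes and of the factors that build ribosomes. None of this regulation of translation is read by a count of messenger RNA.

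Start sites are shown because the TOP motif is what most members share and the naming rule did not use. RefSeq (GRCh38.p14) listed a start for 64 of the 83, and 46 of the 64 (71.9%) began with C and at least 5 pyrimidines in a row, against 5.14% of 27305 genes with a listed start. In the windows below, 15 bases lie on each side of the start, and capitals mark the pyrimidine run that begins at the first transcribed base, or that base alone where it is no pyrimidine. The first 4 encode the acidic stalk of the large subunit and its base, the next is a 5S RNA binding protein, and the others are members whose levels are followed in the text.
RPLP0 (chr12:120201097-120201126, minus strand): gcgcgggcgcgaggcCCTTCTCTCgccagg
RPLP1 (chr15:69452803-69452832, plus strand): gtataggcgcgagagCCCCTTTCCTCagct
RPLP2 (chr11:809952-809981, plus strand): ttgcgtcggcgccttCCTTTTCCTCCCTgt
RPL12 (chr9:127451392-127451421, minus strand): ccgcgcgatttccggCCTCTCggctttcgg
RPL11 (chr1:23691791-23691820, plus strand): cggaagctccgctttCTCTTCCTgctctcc
RPSA (chr3:39406705-39406734, plus strand): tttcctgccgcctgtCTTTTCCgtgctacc
RPL14 (chr3:40457324-40457353, plus strand): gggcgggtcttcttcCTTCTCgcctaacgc
RPS24 (chr10:78033848-78033877, plus strand): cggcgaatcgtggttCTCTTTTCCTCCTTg
RPL36A (chrX:101390996-101391025, plus strand): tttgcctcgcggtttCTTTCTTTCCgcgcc
RPL39 (chrX:119791616-119791645, minus strand): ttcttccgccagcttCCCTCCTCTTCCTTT
RPL29 (chr3:51995881-51995910, minus strand): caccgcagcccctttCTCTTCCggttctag
RPS27 (chr1:153990747-153990776, plus strand): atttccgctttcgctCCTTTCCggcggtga
RPS27L (chr15:63157463-63157492, minus strand): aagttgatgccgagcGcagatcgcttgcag
RPS28 (chr19:8321481-8321510, plus strand): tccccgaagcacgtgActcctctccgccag

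RPS27 and its paralog RPS27L differed at this site: the listed start of RPS27 opens a run of 7 pyrimidines, and that of RPS27L is a G. The listed start of RPS28 is an A, directly followed by pyrimidines, so the split of members by TOP start depends on the exact base listed. In all, 18 of the 64 members did not begin with C and at least 5 pyrimidines, though some of these, such as RPL3, open with a shorter run. In the window from 250 bases before to 50 after the start, searched on both strands, the E-box CACGTG, the sequence MYC and related factors bind, was found for 6.25% of the members, 8.78% of all genes and 46.9% of 49 ribosome biogenesis factors with a listed start. TNGCGTG, the core bound by the aryl hydrocarbon receptor, was in 7.81% of members and 6.69% of all genes. CCGGAAG, the core bound by ETS factors, was in 35.9% of members and 12.2% of all genes. These are matches of letters and not measured binding.

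Together the members took 5.25% and 5.12% of gene counts in the vehicle libraries, 3.62% and 3.92% in Vem, 4.71% and 4.37% in RSV, and 4.04% and 3.70% in RSV+Vem. With TCDD the share was 6.73% and 6.74%, and with RSV+TCDD 5.81% and 5.999%. Both TCDD libraries and both RSV+TCDD libraries lay above both vehicle libraries, and all 6 libraries with Vem or RSV and no TCDD lay below them. The group means were 5.19% ± 0.091 (SD, n = 2) in vehicle, 3.77% ± 0.217 in Vem, 4.54% ± 0.246 in RSV, 3.87% ± 0.235 in RSV+Vem, 6.73% ± 0.011 in TCDD and 5.91% ± 0.130 in RSV+TCDD. With 2 libraries a group, a two-sided exact permutation test cannot go below p = 0.333, and none was made on the share.

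**Figure D1:**
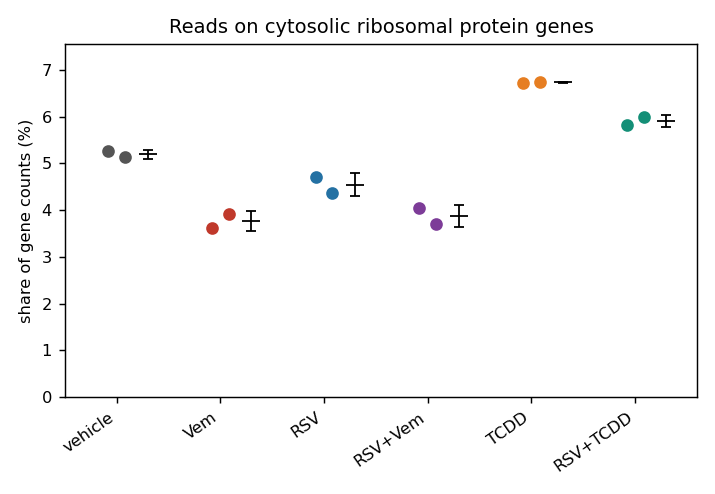
Share of all gene counts (%) on the cytosolic ribosomal protein genes, with a point for each library in each of the 6 groups and the group mean with its SD (n = 2) to the right. TCDD (6.73% ± 0.011) is the highest group and Vem (3.77% ± 0.217) the lowest.

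A share is relative to the other RNA in the library. Counts per ERCC count, the added spike-in RNA, gave another order: 166 and 165 member counts per spike-in count in vehicle, 81.7 and 87.7 in Vem, 135 and 106 in RSV, 104 and 41.0 in RSV+Vem, 168 and 147 in TCDD, and 92.2 and 64.0 in RSV+TCDD. TCDD overlapped vehicle on this scale, and RSV+TCDD lay below it. The spike-in counts themselves ranged from 5366 to 19166 and differed most between the replicates of RSV+TCDD (11865 and 19166), whereas member counts per spike-in count differed most between those of RSV+Vem. The log2 fold changes below use TMM scaling, which centres the bulk of genes near 0, so each is a change relative to that bulk, and CPM are counts scaled to a common library size by the same factors. All comparisons with vehicle share the same 2 vehicle libraries. Libraries were made from a set amount of total RNA, per the study's methods, and the amount of spike-in added is not given in the sources used here. The number of cells and the RNA per cell can thus be neither read nor told apart in such libraries.

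Levels of the members differed widely. Per kilobase of the canonical transcript, the mean over the 12 libraries was highest for RPS18 (2534 CPM per kb), followed by RPS27 (1677), RPS24 (1508), RPL19 (1387) and RPL13A (1326). Among the 5 lowest were RPL36A (5.40), RPS27L (7.35, on a canonical transcript of 6110 nucleotides), RPL17 (25.2) and RPL39L (49.8). This order depends on the canonical lengths: by mean CPM alone, RPS27L (44.9) stood above RPL39L (36.3) and RPL17 (15.4). In the annotation used here, exon bases of several members also belong to another gene on the same strand, where reads are ambiguous. They were 97% of those of RPL17, 84% of RPS10, 65% of RPL26 and 44% of RPL36A. RPL26 stood at 288 CPM per kb. The annotation used for counting may differ, and the part of shared exons in the low levels was not tested.

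Vemurafenib was compared with vehicle to ask how these genes moved with the drug. Of the 80 members, 52 were lower and 0 were higher by edgeR's quasi-likelihood test (Benjamini-Hochberg adjusted over all 16080 genes), beside 26.9% of all genes called lower and 25.5% called higher. At an unadjusted p under 0.05, 56 were lower and 2 higher, and DESeq2 called 50 lower and 1 higher. The median log2 fold change of the members was −0.34 (quartiles −0.55 and −0.14), and that of all genes −0.03, and with spike-in scaling 34 members were called lower with a median of −0.997. The groups did not overlap for 66 members, beside 75.9% of all genes. Of 2176 other genes above 100 CPM, 30.4% were lower and 37.3% higher, with a median of 0.04. The fibroblast markers LUM (−1.09, adjusted p = 0.00015 by edgeR) and COL1A1 (−1.17) also fell with Vem, and their part in the members' change was not tested.

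The largest falls were in RPL36A, RPL39L and RPSA. RPSA, a small subunit protein also known as the laminin receptor, was at 872 and 902 CPM in vehicle and at 479 and 534 in Vem. Both Vem libraries lay far below both vehicle libraries, a log2 fold change of −0.81 (SE 0.09, adjusted p = 6.2e-07 by edgeR). RPL39L, a paralog of the exit tunnel protein RPL39, was at 34.03 and 34.7 CPM in vehicle and at 18.6 and 17.97 in Vem (−0.91, SE 0.12, adjusted p = 3.3e-06 by edgeR). RPL36A, a large subunit protein, had few reads, 120 and 171 counts in vehicle and 51 and 24 in Vem, and its fitted change was −1.26 (SE 0.24).

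Within the stalk list, RPLP0, the scaffold of the stalk, was at 1636 and 1682 CPM in vehicle and 1057 and 1173 in Vem (−0.57, adjusted p = 1.3e-05 by edgeR), and RPL12 at its base fell by 0.47 on the log2 scale. RPLP1 and RPLP2, the acidic proteins carried by RPLP0, were not called, at −0.22 (adjusted p = 0.054 by edgeR) and −0.09. Both proteins that bind 5S RNA before it joins the large subunit fell, RPL5 by 0.64 (1478 and 1440 CPM to 862 and 1009) and RPL11 by 0.27. Of the 28 members not called with Vem, 7 had a positive estimate, of which RPS28 had the highest (149 and 158 CPM in vehicle, 169 and 197 in Vem, 0.25, adjusted p = 0.11 by edgeR).

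By subunit, 31 of 47 large and 21 of 33 small subunit members were lower, with medians of −0.32 and −0.42. Members with a TOP start had a median of −0.39 (32 of 46 lower), and those with a listed start and no such run −0.26 (9 of 17 lower). The difference between these sets was not tested. Of 17 tested genes mutated in Diamond-Blackfan anaemia, a failure of red cell production, 12 were lower with Vem, close to the share of all members (52 of 80).

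Resveratrol was compared with vehicle in the same way. It gave 47 members lower and 1 higher, beside 20.2% of all genes called lower and 20.5% called higher, with a median of −0.29 for the members and 0.00 for all genes. Of the 2176 other genes above 100 CPM, 37.2% were lower and the median was −0.13. With spike-in scaling 0 members were called and their median was −0.45. RPL7, a large subunit protein, was at 819 and 807 CPM in vehicle and 524 and 548 in RSV (−0.60, SE 0.09, adjusted p = 3.5e-05 by edgeR). RPSA was at 574 and 534 CPM in RSV (−0.68). RPL17, an exit tunnel protein with shared exons (97% of its exon bases), fell by 0.76 from 22.3 and 20.8 CPM to 13.1 and 12.3. In each of the 3 genes both RSV libraries were below both vehicle libraries.

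The member that rose was RPS27L, a paralog of RPS27 known as a p53 target. It was at 36.3 and 36.8 CPM in vehicle and 52.7 and 63.0 in RSV, a log2 fold change of 0.66 (SE 0.12, adjusted p = 0.00022 by edgeR). RPS27 itself was at 554 and 501 CPM in vehicle and 564 and 544 in RSV (0.07, adjusted p = 0.52 by edgeR), with the groups overlapping. RPL39 and RPL39L were not called with RSV either, at −0.02 and 0.02. In the stalk, RPLP0, RPLP1 and RPLP2 fell by 0.44, 0.31 and 0.41, and RPL12 was not called (−0.17). RPL5 and RPL11 fell by 0.38 and 0.27.

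TCDD was compared with vehicle to ask how the same genes moved with this ligand. Relative to the bulk of genes, 67 of the 80 members were higher and 0 lower, whereas with spike-in scaling 0 were called and the members' median turned to −0.09. Over all genes, 4.72% were called higher and 2.01% lower. The members' median was 0.42 (quartiles 0.36 and 0.51) and that of all genes 0.00, and 79 of 80 estimates were positive. The TCDD and vehicle libraries did not overlap for 78 members, beside 52.4% of all genes. At an unadjusted p under 0.05, 76 were higher and 1 lower, and DESeq2 called 70 higher and 0 lower. Without TCDD replicate 1 the call was made for 33 members and without TCDD replicate 2 for 31, while the median stayed between 0.41 and 0.43 whichever library was left out.

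RPL29, a large subunit protein, was among the 3 largest rises, under TMM scaling as in all values that follow for TCDD. It was at 516 and 526 CPM in vehicle and 786 and 799 in TCDD (0.60, SE 0.09, adjusted p = 0.00065 by edgeR). Both TCDD libraries lay above both vehicle libraries.

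RPLP0 was at 2187 and 2249 CPM with TCDD (0.42), RPLP1 at 1485 and 1589 (0.45) and RPL12 at 1128 and 1118 (0.34), each called higher, and RPLP2 at 661 and 677 (0.17, adjusted p = 0.27 by edgeR). RPL5 was at 1986 and 1988 CPM (0.45) and RPL11 at 1423 and 1411 (0.40). RPL39 was at 683 and 665 CPM and RPL39L at 46.1 and 50.8, rises of 0.53 and 0.49. RPS27 rose by 0.58, to 789 and 792 CPM, and RPS27L, at 47.9 and 46.8, was not called (0.37, adjusted p = 0.063 by edgeR). The 1 member with a negative estimate was RPL36A (−0.46, adjusted p = 0.23 by edgeR), one of the genes with shared exons. Both subunits had a median of 0.42, with 39 of 47 large and 28 of 33 small subunit members higher. The median was 0.42 for members with a TOP start (38 of 46 higher) and 0.38 for those with a listed start and no such run of at least 5 (13 of 17 higher). Among 700 other genes with a TOP start, 61 were higher and 13 lower with a median of 0.03, and among 2176 other genes above 100 CPM, 173 were higher and 54 lower with a median of −0.01. Among 537 other protein-coding genes with transcripts under 1000 nucleotides, 55 were higher and 6 lower, and their median was 0.16. LUM, the fibroblast marker with the most counts, rose with TCDD too (1.47, adjusted p = 3.7e-05 by edgeR), and its part in the members' change was not tested. The fibroblast marker COL1A1 did not rise, with 30 and 36 raw counts in vehicle and 20 and 8 in TCDD.

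**Figure D2:**
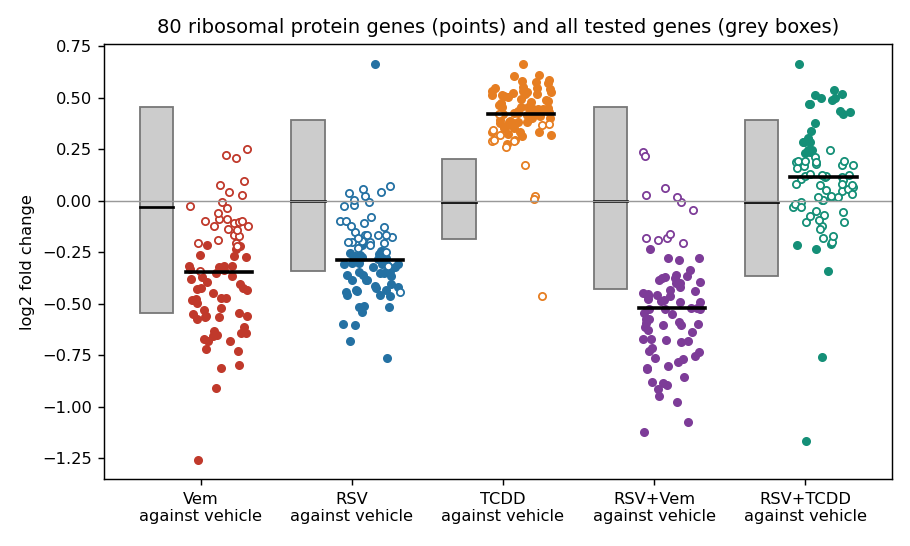
Log2 fold change against vehicle under TMM scaling for 80 cytosolic ribosomal protein genes in each of 5 treated groups (points, filled where called at an adjusted p under 0.05, with the median as a thick bar) beside the quartiles and median of all 16080 genes tested (grey boxes). The members' medians are −0.34 for Vem, −0.29 for RSV, 0.42 for TCDD, −0.52 for RSV+Vem and 0.11 for RSV+TCDD, and with spike-in scaling the last turns to −1.09 and that of TCDD to −0.09.

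The Vem and TCDD libraries share no sample, and Vem was also set against TCDD. All 80 members had a lower level in Vem and 76 were called lower, beside 26.4% of all genes, with a median of −0.79. At an unadjusted p under 0.05, 77 were lower and 0 higher, and DESeq2 called 76 lower and 0 higher. With spike-in scaling the members called lower were 10 and the median was −0.93. The largest differences were in RPL39L (18.6 and 17.97 CPM in Vem against 46.1 and 50.8 in TCDD, −1.40), RPS29, a small zinc-binding protein of the 40S head (108 and 99.4 CPM against 245 and 240, −1.23), and RPSA (−1.19). LUM differed in the same direction (−2.56), and COL1A1 had 12 and 6 raw counts in Vem and 20 and 8 in TCDD.

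**Figure D3:**
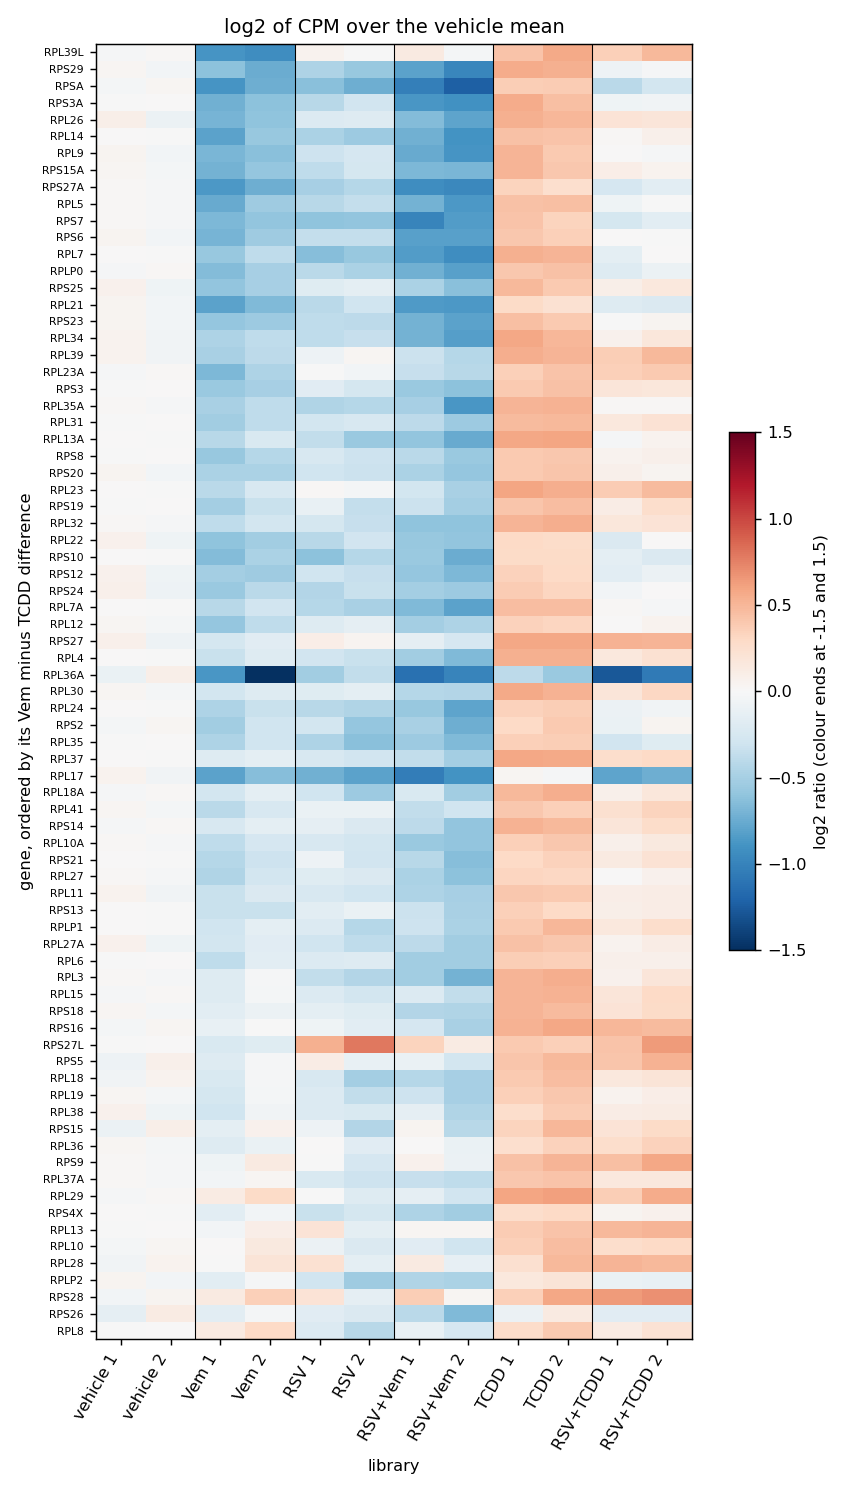
Log2 of each library's CPM over the vehicle mean for 77 of the 80 cytosolic ribosomal protein genes (rows, ordered by the difference between Vem and TCDD) in 12 libraries (columns, 2 for each group), on a colour scale that ends at −1.5 and 1.5. The Vem and RSV+Vem columns are mostly blue (lower) and the TCDD columns mostly red (higher), and RPL36A, RPL17 and RPS27L depart from their neighbours. CPM are TMM-scaled, and spike-in scaling turns the median change of the TCDD and RSV+TCDD columns to below 0.

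In the combination of resveratrol and vemurafenib, 68 members were lower and 0 higher than in vehicle, beside 24.7% of all genes called lower and 24.1% called higher, with a median of −0.52 for the members and 0.00 for all genes. Of the 2176 other genes above 100 CPM, 43.1% were lower, with a median of −0.18. Of the fibroblast markers, LUM was at −0.97. COL1A1 was not called higher, with 30 and 36 raw counts in vehicle and 43 and 15 in RSV+Vem. At an unadjusted p under 0.05, 70 were lower and 0 higher, and DESeq2 called 68 lower and 0 higher. RPSA was at 436 and 379 CPM, its lowest level in the 6 groups, a change of −1.12 (SE 0.09, adjusted p = 3.3e-08 by edgeR). RPL36A (−1.07) and RPL17 (−0.98), both genes with shared exons and low levels, had the next largest falls among members whose groups did not overlap. RPLP0 fell by 0.77, RPL12 by 0.49, RPLP2 by 0.46 and RPLP1 by 0.40, so all 4 genes of the stalk list were called, and RPL5 and RPL11 fell by 0.78 and 0.48. The RSV+Vem libraries were also those with the lowest RNA integrity (8.7 and 8.6), below RSV (9.2 and 9.5) and Vem (9.2 and 9.7) too. The part of RNA integrity in these falls, and in the comparisons with RSV and with Vem below, was not tested.

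Against RSV alone, RSV+Vem had 40 members lower and 0 higher (beside 13.4% and 11.3% of all genes), with a median of −0.26. Of the other genes above 100 CPM, 22.3% were lower (median −0.05). LUM was at −0.85, and COL1A1 had 43 and 43 raw counts in RSV and 43 and 15 in RSV+Vem. An unadjusted p under 0.05 was reached by 53 lower and 0 higher, and DESeq2 called 42 lower and 0 higher. RPS3A, a small subunit protein, was at 657 and 719 CPM in RSV and 479 and 466 in RSV+Vem (−0.54), and RPL9 and RPL26, of the large subunit, fell by 0.53 and 0.52. Without RSV+Vem replicate 2, the shallowest library, 18 were called, and with spike-in scaling 0 (median −0.76).

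Against Vem alone, 29 members were lower and 2 higher (beside 18.7% and 19.1% of all genes), with a median of −0.18. Of the 2176 other genes above 100 CPM, 43.0% were lower, beside 36.2% of the members, and their median was −0.20. Of the fibroblast markers, COL1A1 was higher (1.64), and LUM had 87 and 74 raw counts in Vem and 109 and 64 in RSV+Vem. RPL39L was at 37.7 and 33.7 CPM in RSV+Vem, above the Vem libraries by 0.97 (SE 0.12, adjusted p = 4.9e-06 by edgeR), and RPS27L was at 45.9 and 39.8 (0.44). RPL3, which lies by the site where amino acids are joined, was at 1533 and 1731 CPM in Vem and 1223 and 1067 in RSV+Vem (−0.51), with RPS26 (−0.43) and RPL29 (−0.41) next. Leaving out Vem replicate 2 gave 13 members called, leaving out RSV+Vem replicate 2 gave 12, and spike-in scaling gave 0.

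The interaction of RSV and Vem asks whether the change in the combination differs from the sum of the 2 single changes on the log2 scale. It was called for 4 members, each positive, beside 22.7% of all genes called either way (11.8% positive and 10.9% negative), so the members' share (4 of 80) lay below that of all genes. The 4 were RPL39L (0.95, SE 0.16, adjusted p = 0.00043 by edgeR), RPL14 (0.39, adjusted p = 0.036 by edgeR), RPSA (0.37, adjusted p = 0.046 by edgeR) and RPS24 (0.34, adjusted p = 0.048 by edgeR). RPL39L fell with Vem alone, did not pass the test with RSV (0.02), and was at 0.06 against vehicle in the combination. Its lowest library outside the Vem group held 33.7 CPM, above both Vem libraries. RPL39 had no such pattern, with an interaction of 0.08 (adjusted p = 0.67 by edgeR) and changes of −0.44 with Vem and −0.37 with RSV+Vem. The other 3 calls were close to the threshold. Spike-in scaling called 0 members and DESeq2 2, and the count was 1 without vehicle replicate 1 and 2 without either Vem replicate 1 or RSV+Vem replicate 1.

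**Figure D4:**
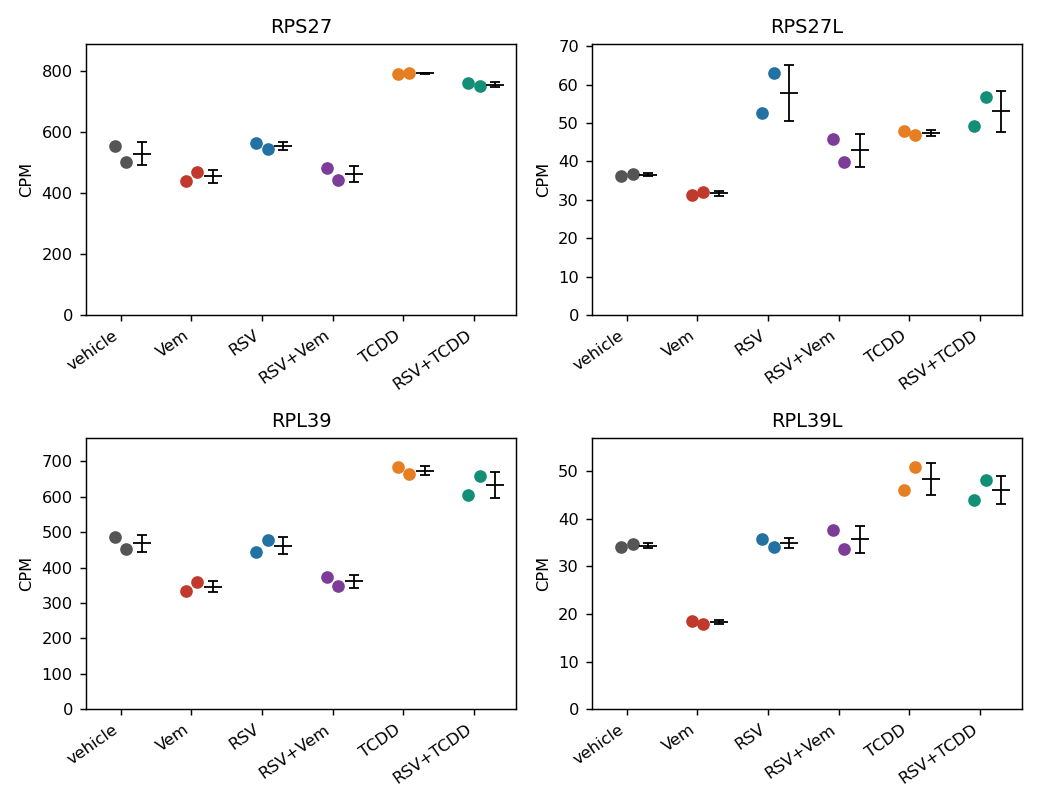
CPM (TMM-scaled) of RPS27, its paralog RPS27L, RPL39 and its paralog RPL39L, with a point for each library and the group mean with its SD (n = 2). RPS27L is highest in RSV (52.7 and 63.0 CPM) and RPL39L is lowest in Vem (18.6 and 17.97 CPM). RPS27 in RSV overlaps vehicle, and RPL39 in Vem (335 and 358 CPM) overlaps RSV+Vem (374 and 348 CPM).

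In RSV+TCDD, 22 members were higher and 6 lower than in vehicle, beside 22.2% and 21.5% of all genes, with a median of 0.11, and with spike-in scaling 63 were lower and the median turned to −1.09. The share of members called higher (22 of 80) was close to that of all genes. Of the other genes above 100 CPM, 19.8% were higher and 35.3% lower (median −0.12). RPS28, a small subunit protein of the 40S head, was at 149 and 158 CPM in vehicle and 239 and 248 in RSV+TCDD (0.66, SE 0.13, adjusted p = 0.00052 by edgeR). RPS27L was at 49.3 and 56.8 CPM (0.54) and RPS9, a small subunit protein, at 641 and 700 (0.52). The largest falls were in RPL36A (−1.16) and RPL17 (−0.76), both genes with shared exons, and in RPSA, which was at 671 and 731 CPM (−0.34). None of the 4 stalk genes and neither RPL5 nor RPL11 was called.

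Against RSV alone, with which it shares the RSV treatment, RSV+TCDD had 63 members higher and 0 lower, beside 3.89% and 2.28% of all genes, with a median of 0.40, while spike-in scaling gave 3 lower and −0.63. Of the other genes above 100 CPM, 7.08% were higher (median 0.01), and LUM was at 0.05 (adjusted p = 0.92 by edgeR). An unadjusted p under 0.05 was reached by 75 higher and 1 lower, and DESeq2 called 67 higher and 0 lower. RPS9 was at 468 and 395 CPM in RSV and 641 and 700 in RSV+TCDD (0.64, SE 0.10, adjusted p = 0.0011 by edgeR), RPS28 rose by 0.62 and RPS16 by 0.59. The count was 25 without RSV replicate 2, 41 without RSV+TCDD replicate 1 and 19 without RSV+TCDD replicate 2.

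Against TCDD alone, RSV+TCDD had 57 members lower and 0 higher, beside 19.1% and 18.6% of all genes, with a median of −0.30. Of the other genes above 100 CPM, 34.4% were lower (median −0.12). Of the fibroblast markers, LUM was at −1.55 and COL1A1 at 1.51. An unadjusted p under 0.05 was reached by 59 lower and 0 higher, and DESeq2 called 55 lower and 0 higher. RPL17 fell by 0.77, RPSA by 0.71 and RPL36A by 0.70, where RPL17 and RPL36A are genes with shared exons. Leaving out TCDD replicate 1 gave 35 called, leaving out RSV+TCDD replicate 1 gave 34, and spike-in scaling gave 12. The interaction of RSV and TCDD was called by edgeR for 0 members (1 below and 0 above at an unadjusted p under 0.05, and 0 by DESeq2), beside 0.149% of all genes (0.0124% above and 0.137% below), and the members' median was −0.03.

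The members were then set beside other genes of the translation machinery, in lists chosen with earlier results of these data known. The shares of all genes called lower and higher were 26.9% and 25.5% with Vem and 20.2% and 20.5% with RSV. They were 2.01% and 4.72% with TCDD and 21.5% and 22.2% with RSV+TCDD. Of 59 ribosome biogenesis factors, which process ribosomal RNA and assemble subunits, 35 were lower and 0 higher with Vem (median −0.41), and 28 lower and 3 higher with RSV (median −0.30). With TCDD, where the ribosomal proteins moved up relative to the bulk of genes, 0 biogenesis factors were called higher and 3 lower, with a median of −0.15. In RSV+TCDD 40 were lower and 1 higher, with a median of −0.47. NOP58, a core protein of box C/D snoRNPs, had the largest fall with Vem (199 and 230 CPM in vehicle, 72.5 and 96.2 in Vem, −1.35). UTP20, of the small subunit processome, had the largest fall with RSV (101 and 113 CPM to 48.0 and 52.5, −1.09). With TCDD the largest was in GAR1, of box H/ACA snoRNPs (37.8 and 38.4 CPM to 28.3 and 26.1, −0.48).

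Of 75 mitochondrial ribosomal proteins, which serve the separate ribosome of that organelle, 26 were higher and 16 lower with Vem (median 0.02), 3 higher and 32 lower with RSV (−0.21), and 1 higher and 0 lower with TCDD (0.05). Their share called lower with Vem (21.3%) was below that of all genes (26.9%). Of 10 snoRNA host genes, several of which are TOP messengers, 9 were lower with Vem (−0.73), 6 with RSV (−0.44), and 1 was higher with TCDD (ZFAS1, 76.2 and 67.0 CPM to 97.98 and 96.1, 0.44). Of 37 translation factors, 18 were lower and 4 higher with Vem, 25 lower and 2 higher with RSV, and 9 higher and 1 lower with TCDD. TPT1, a TOP messenger, was the factor with the largest rise in TCDD (1106 and 1060 CPM to 1649 and 1519, 0.55, adjusted p = 0.00070 by edgeR). The 12 genes of RNA polymerase I, which makes ribosomal RNA, were 8 lower and 2 higher with Vem, 2 lower and 2 higher with RSV, and 1 of each with TCDD. With RSV these counts lay near the shares of all genes (20.2% lower and 20.5% higher). Of 7 tested ribosomal proteins whose names fall outside the rule, 2 were lower with Vem, 2 with RSV and 0 were called with TCDD, where their median was 0.23. Their share lower with Vem (28.6%) was close to that of all genes (26.9%). RACK1, listed under its older symbol GNB2L1, was at 1258 and 1246 CPM in vehicle and 1432 and 1501 in TCDD (0.23, adjusted p = 0.084 by edgeR).

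**Figure D5:**
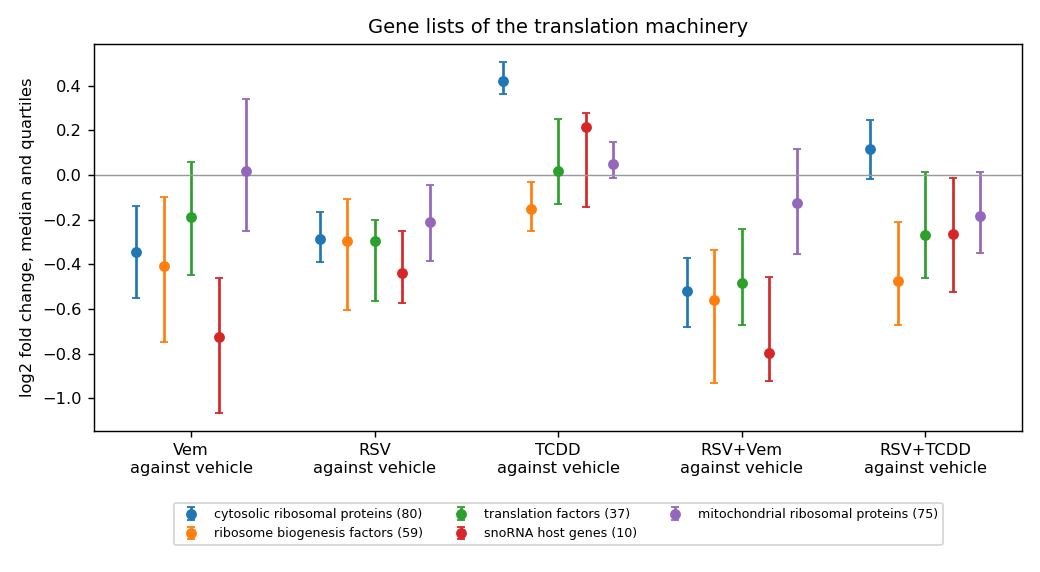
Median and quartiles of the log2 fold change against vehicle (TMM scaling) for cytosolic ribosomal proteins and 4 other lists of the translation machinery, with the number of genes tested in brackets. With TCDD the cytosolic ribosomal proteins stand at 0.42 and the ribosome biogenesis factors at −0.15, and with Vem at −0.34 and −0.41. With spike-in scaling the cytosolic ribosomal proteins stand at −0.09 with TCDD and −1.09 with RSV+TCDD.

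MYC was lower than in vehicle in every group with Vem or RSV. It was at 103 and 96.6 CPM in vehicle, 15.6 and 16.4 in Vem, 26.6 and 19.2 in RSV, 18.4 and 16.9 in RSV+Vem, 107 and 122 in TCDD, and 30.3 and 29.5 in RSV+TCDD. The log2 fold change against vehicle was −2.63 with Vem, −2.12 with RSV, −2.49 with RSV+Vem and −1.74 with RSV+TCDD, and 0.20 with TCDD (adjusted p = 0.36 by edgeR). In RSV+TCDD, MYC was thus lower than in vehicle while the members' median stood at 0.11, or at −1.09 with spike-in scaling. MXD4, an antagonist of MYC at shared sites, had the largest rise of this list with Vem (10.9 and 11.9 CPM to 64.6 and 73.2, 2.59) and was also higher with TCDD (21.1 and 21.2 CPM, 0.89). With RSV the largest rise was in SESN2, an inhibitor of mTOR signalling (14.1 and 14.0 CPM to 73.4 and 42.7, 2.05). The part of these genes in the members' changes was not tested.

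Reads of ribosomal protein genes can also be placed on their many processed pseudogenes. The 844 pseudogene rows held between 2.75 and 3.14 counts for every 100 counts on the members in each library, so the pseudogene rows kept about the same size relative to the members in all 6 groups. Of 78 pseudogene rows that passed the filter, 22 were higher and 0 lower with TCDD (median 0.53), beside 4.72% and 2.01% of all genes. With Vem 17 were lower and 5 higher (median −0.22), beside 26.9% and 25.5% of all genes. The share called lower with Vem (21.8%) thus lay below that of all genes. Reads on these rows cannot be told apart from reads of the members themselves.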

How the data were processed

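The submitters sequenced stranded, polyadenylated RNA libraries as read pairs, aligned them with STAR 2.4.0a to hg19 and counted primary alignments per gene name with featureCounts (Subread 1.5.0-p3), per their processing notes and methods. The annotation release is not given in the sources used here. The deposited values are raw counts per gene for 12 libraries, with 96 control sequences (92 of them ERCC spike-ins) that were left out of library sizes and tests.

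Counts were fitted here with edgeR 4.0.16 (limma 3.58.1, R 4.3.3): a filter by group, TMM factors (0.890 to 1.08), robust quasi-likelihood tests over all 12 libraries, and Benjamini-Hochberg adjustment over 16080 genes, called at an adjusted p under 0.05. CPM are TMM-scaled. Results with an adjusted p come from this tool. Lengths and shared exons were read from GENCODE on GRCh37, start sites from RefSeq on GRCh38.p14. The fit was tested on simulated data. Figures were drawn with matplotlib 3.10.9 (Python 3.11.15).

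Per comparison, the text names the 3 largest rises and 3 largest falls among called members whose groups did not overlap and averaged at least 50 counts on the higher side, every called member of an interaction (if at most 5), the stalk, 5S-binding and L-suffix lists with the genes the paralogs are named after, the 5 highest and 5 lowest levels per length, and, of the other lists, extremes among called genes. Results of a few genes that the rule selects are not reported here, though these genes stay in the counts and medians. The members and lists were chosen with earlier results of these data known. Alternatives were DESeq2 1.42.0, RLE factors, TMM without the members, spike-in scaling, other filters, a replicate block, added pseudogene counts, only the libraries compared, and leaving out each library. Replicates differed by more than counting noise in every group (chi-square per degree of freedom of 4.61 to 22.6). Counting precision is limited by the library totals of 8378655 to 25076925.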

Additional observations from a re-analysis of the deposited data

Results flagged for a closer look

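The interaction of RSV and Vem, a test of whether the effect of vemurafenib differs between cells with and without resveratrol, was called by edgeR for 4 ribosomal protein genes. RPL39L had the largest value, 0.95 (adjusted p = 0.00043), and stayed called under every alternative except spike-in scaling, where its value was 1.10 and its adjusted p 1.00. RPL14 (0.39, adjusted p = 0.036), RPSA (0.37, adjusted p = 0.046) and RPS24 (0.34, adjusted p = 0.048) kept their sign under every alternative run and lost the call in several that left out 1 library, among them Vem replicate 1 (0.28, 0.29 and 0.27). Their part among all interaction calls is small, since 22.7% of all genes were called in this test. No cause was tested.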

How the results depend on the processing

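Spike-in scaling was the alternative that changed most results. It moved the median of all genes to −0.68 for Vem, −0.17 for RSV, −0.51 for TCDD, −0.70 for RSV+Vem and −1.20 for RSV+TCDD against vehicle, and the members' medians to −0.997, −0.45, −0.087, −1.18 and −1.09. Relative to all genes the members then stood at −0.32, −0.28, 0.42, −0.48 and 0.11. It called 34 members with Vem, 0 with RSV, 0 with TCDD and 63 (all lower) with RSV+TCDD. It called 0 for RSV+Vem against RSV (median −0.76), 0 against Vem, 3 lower for RSV+TCDD against RSV (−0.63), 12 against TCDD (−0.99), 10 for Vem against TCDD (−0.93) and 0 for the interaction of RSV and Vem (0.26), and the median interaction of RSV and TCDD was −0.56. Of the members called higher, it turned the sign of 47 of 67 in TCDD against vehicle, 22 of 22 in RSV+TCDD against vehicle and 63 of 63 in RSV+TCDD against RSV. Among the genes named here, those that turned in TCDD against vehicle included RPL39L (−0.017), RPSA (−0.13), RPS28 (−0.041), RPS9 (−0.033), RPS3A (−0.0029), RPL9 (−0.051), RPL14 (−0.074), RPS24 (−0.15), RPLP0 (−0.091), RPLP1 (−0.066), RPL12 (−0.17), RPL5 (−0.063), RPL11 (−0.11), POLR1D (−0.10) and ZFAS1 (−0.069). In RSV+TCDD against vehicle they included RPS28 (−0.53), RPS27L (−0.68), RPS9 (−0.69), RPL39L (−0.79), RPL29 (−0.74), RPS16 (−0.70), RPL39 (−0.77) and RPS27 (−0.68), against RSV alone RPS9 (−0.41), RPS28 (−0.42) and RPS16 (−0.43), and with Vem POLR1A (−0.15). The cause was not tested.

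The interaction of RSV and Vem was called for 2 members by DESeq2, 2 with RLE factors and 1 with only the libraries compared. With each library left out in turn, members called ranged from 31 to 52 for TCDD, 18 to 33 for RSV+Vem against RSV, 12 to 33 for RSV+Vem against Vem, 19 to 56 for RSV+TCDD against RSV, 34 to 49 for RSV+TCDD against TCDD and 1 to 5 for the interaction. Medians ranged from −0.43 to −0.28 for Vem, −0.57 to −0.47 for RSV+Vem, −0.24 to −0.12 for RSV+Vem against Vem, −0.83 to −0.72 for Vem against TCDD and 0.034 to 0.18 for the interaction. The members' share of counts outside the 10 most counted genes was 5.57% in vehicle, 4.32% in Vem, 4.95% in RSV, 4.33% in RSV+Vem, 7.29% in TCDD and 6.38% in RSV+TCDD, and with pseudogene counts added it was 6.94% in TCDD and 6.09% in RSV+TCDD. Of the values of single named genes under all alternatives, 2152 kept direction and side of the threshold, 152 lost the call, 25 gained it and 27 turned.

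Deviations of same-numbered libraries correlated between −0.12 and 0.15 over 15 pairs of groups. The 3 values over 0.1 were those among the resveratrol groups (0.15 for RSV with RSV+Vem, 0.15 for RSV with RSV+TCDD and 0.12 for RSV+Vem with RSV+TCDD). The other 12 pairs did not reach 0.1, so the numbers were not taken as pairs. A fit with the replicate number as a block called 52 members with Vem, 48 with RSV, 67 with TCDD, 68 with RSV+Vem and 28 with RSV+TCDD against vehicle, 41 for RSV+Vem against RSV, 31 against Vem, 65 for RSV+TCDD against RSV and 56 against TCDD, and 4 for the interaction of RSV and Vem, all within 2 of the counts without the block.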
